A study of Mus musculus with 30 samples.

Results

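Urinary bladder and lung of the adult mouse were compared directly by gene expression, on 2 bladder and 2 lung arrays chosen by their sample labels from a series of 30 arrays that covers 15 tissues with 2 arrays each. All animals were male C57BL/6 mice, 28 weeks old per the labels (the methods state another age). The labels name no treatment and no genetic change, and the tissue was taken after euthanasia, rinsed and frozen. Most tissues of the series, bladder and lung among them, had replicates from different animals per the submitters' description. Whole organ pieces were used, so every value averages over all the cell types in the piece, and more cells of a type cannot be told apart from more RNA per cell. Each array carried the RNA of the organ in the green dye (Cy3) and a common reference in the red dye (Cy5), pooled RNA of mouse cell lines to which RNA of ES cells (embryonic stem cells) had been added. Levels are on the log2(Cy3/Cy5) scale, where a positive level means more RNA in the organ than in the reference, and levels of different probes are not set against each other. A difference is the mean level of the bladder arrays minus that of the lung arrays.

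The bladder wall is a stretchable bag. A stratified urothelium faces the urine, a connective tissue layer lies beneath it, and bundles of smooth muscle (the detrusor) contract to empty it. The lung is built for gas exchange: its alveoli are lined by thin epithelium against a dense capillary bed, alveolar macrophages patrol the air spaces, and the conducting airways are lined by secretory cells and by multiciliated cells whose beating cilia move mucus. Both organs are hollow, are lined by epithelium of endodermal origin and contain smooth muscle and much fibroblast-derived matrix.

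Of 21019 probes that passed the filter on dim spots, 3450 (16.4%) differed between the organs, which here means by at least 1 on the log2 scale and with an adjusted p under 0.05. There were 1338 probes (6.37%) higher in bladder and 2112 (10.05%) higher in lung. The difference was at least 2 on the log2 scale for 486 probes higher in bladder and 835 higher in lung, and at least 4 for 60 and 121 probes. Both bladder arrays lay above both lung arrays for 7861 probes (37.4%) and below them for 7047 (33.5%), whatever the size of the gap. The median difference over all tested probes was 0.02. Bladder held the highest mean of the 15 tissues for 339 of the probes higher in bladder (25.3%), and lung held it for 897 of those higher in lung (42.5%). Lung signal was not well above background on either array for 113 of the probes higher in bladder, and bladder signal was not for 349 of those higher in lung. A symbol was used for 5049 of the tested probes (24.02%), of which 247 were called higher in bladder and 326 higher in lung. Many defining markers, such as the uroplakins of the urothelium and the surfactant proteins of the alveolus, belong to probes that were not named here, so the labels were checked against the smooth muscle, ciliary and other markers given below.

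**Figure D1:**
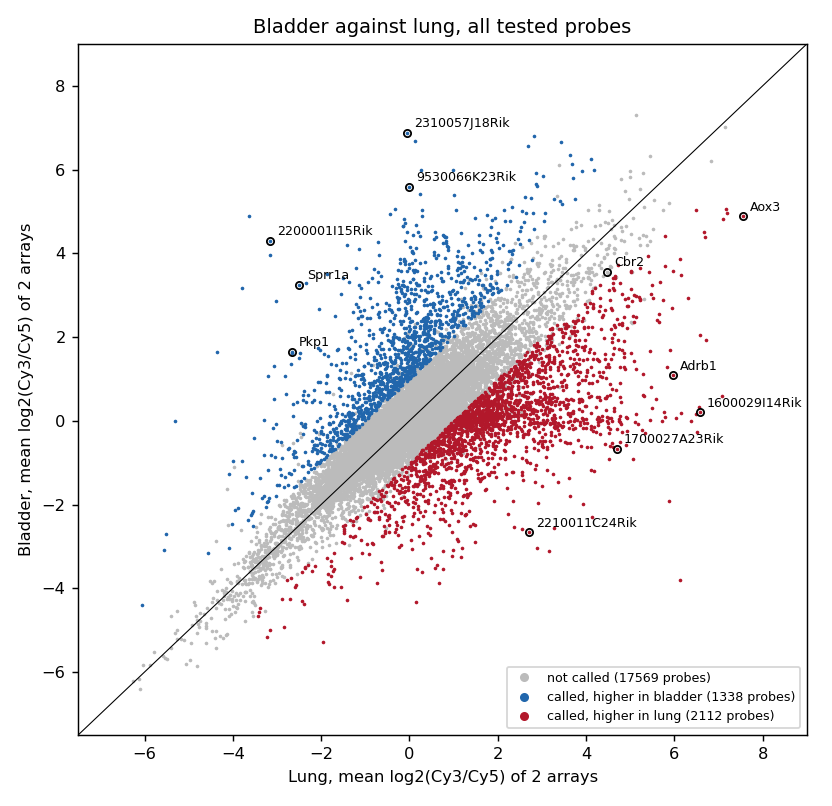
Mean log2(Cy3/Cy5) of 2 bladder arrays (vertical axis) against 2 lung arrays (horizontal axis), 1 point per tested probe. The 1338 probes called higher in bladder lie above the diagonal and the 2112 called higher in lung lie below it, and circles mark 11 of the genes described in the text.

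The 4 arrays had median Cy3 signals between 105.5 (lung 2) and 175 (lung 1) and median Cy5 signals between 186 and 235, in scanner units. Between 61.6% and 72.5% of the probes were well above background in Cy3, and no spot of these arrays was flagged as saturated. Both bladder arrays lay on 1 slide and were scanned on the same day as lung 2, whereas lung 1 lay on another slide and was scanned on another day. The bladder slide held no lung array, so slide and organ cannot be told apart within slides. The estimated correlation of arrays within a slide, beyond their tissue, was 0.693. The SEs and adjusted p values printed here do not allow for it and may be too small. With the slide as a random block, 2429 probes were called, and 3856 with only the arrays of the scan day that bladder and lung 2 shared. In that fit lung is a single array, which is assumed to vary like the arrays of the other tissues. Leaving out any one of the 4 arrays left between 2926 and 3072 calls.

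The reference channel was not the same at every spot. Although every array carried the same reference RNA in Cy5, 210 probes had Cy5 signals at least 1 log2 unit higher in lung than in bladder, and 188 of these were probes called higher in lung. Likewise 159 probes had Cy5 at least 1 log2 unit higher in bladder, and 111 of these were called higher in bladder. Chi3l1 gives the clearest case, with Cy5 signals of 136 and 92.8 scanner units on the bladder arrays and 3918 and 2038 on the lung arrays. Its difference was -3.49 as log2(Cy3/Cy5) and -7.08 from the Cy3 level alone, so the ratio gave the smaller difference there. Among other genes described below, Cy5 was higher in bladder for Des (by 4.03), Sprr1a (3.07), Lmod1 (2.15), Rgs5 (1.99), 2310057J18Rik (1.98), 2200001I15Rik (1.68) and 9530066K23Rik (1.22). Examples with Cy5 higher in lung are Ace (-2.76), Fmo1 (-1.81), 1700021K14Rik (-1.81) and 1110017D15Rik (-1.78). For each of these 11 genes the ratio also gave a smaller difference than Cy3 alone. The source of the Cy5 signal was not tested.

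Outside their own replicate, the arrays of lung were most similar to those of bladder. This closeness was part of why the pair was chosen and is given as a description. Across all tested probes, which are not independent replicates, Pearson's r was 0.971 between the bladder arrays, 0.969 between the lung arrays and 0.677 to 0.702 between a bladder and a lung array. The next tissue for lung was fat, at 0.557 to 0.656, followed by stomach at 0.566 to 0.600. Seen from bladder, stomach overlapped lung, at 0.671 to 0.715, skin followed at 0.634 to 0.667, and fat ranged from 0.586 to 0.706. Between the means of the arrays of each tissue, fat came first for bladder (0.714), ahead of stomach and lung (both 0.699). All arrays shared the same reference, which contributes to every r.

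**Figure D2:**
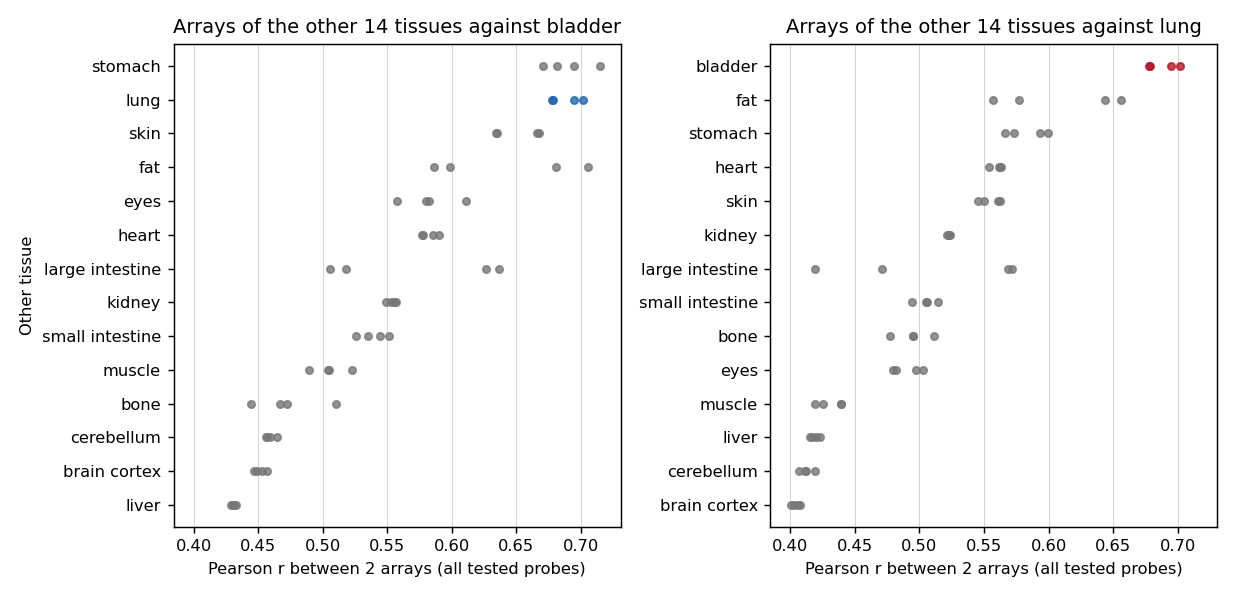
Pearson r between each bladder array (left) or lung array (right) and each array of the other 14 tissues, over all tested probes, 1 point per pair of arrays. The lung panel is led by bladder at 0.677 to 0.702, and in the bladder panel stomach and lung overlap.

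2200001I15Rik (now Fam25c) showed the largest difference among the named genes, with levels of 4.30 and 4.31 in bladder and -3.39 and -2.93 in lung. The difference was 7.47 ± 0.40 (SE, n = 2 arrays per organ, limma adjusted p = 1.63e-10), or 177-fold in the ratio. The Cy3 signals were further apart, at 110813 and 123157 scanner units in bladder against 317 and 196 in lung. Both bladder arrays lay above both lung arrays, but such lack of overlap was required of the 12 leading genes chosen in each direction. Skin (5.44) was the one tissue with a higher mean than bladder. Sprr1a, a small proline-rich protein that is cross-linked into the cornified envelope of stratified epithelia, was at 3.24 and 3.26 in bladder and at -2.74 and -2.24 in lung. Its difference was 5.74 ± 0.39 (adjusted p = 3.86e-09), the bladder and lung arrays were far apart, and bladder had the highest mean of the 15 tissues, ahead of stomach (2.997) and skin (1.85).

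2310057J18Rik was the gene on which the bladder arrays disagreed most among the leading ones. Its levels were 8.33 and 5.44 in bladder and -0.02 and -0.08 in lung, a difference of 6.93. The probe was not well above background on either lung array and passed the filter through bladder alone, so its difference is given as a description, with no test. Of the 29 probes that passed through bladder alone 12 were called higher in bladder, and of the 116 that passed through lung alone 30 were called higher in lung. Bladder was at least 122-fold above lung, and at least 23.3-fold without bladder 1. Such bounds are the lowest of 3 folds, that of the ratio and those of Cy3 in both scalings used, where Cy3 was set against the dimmest signal that still counted as above background. They are open to dye bias since no dyes were swapped. The Cy3 signal itself was 160196 scanner units on bladder 1 and 2044 on bladder 2, against 55.1 and 54.4 on the lung arrays. Without bladder 1 the difference was 5.49. Stomach, at 1.82, was the next tissue.

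9530066K23Rik (now Nipal4, a membrane protein of the epidermis whose loss causes ichthyosis in humans) stood at 5.43 and 5.75 in bladder and -0.25 and 0.22 in lung, with a difference of 5.61 ± 0.42 (adjusted p = 1.44e-08). The bladder arrays did not overlap the lung arrays, and the mean in bladder (5.59) was next to that in skin (5.54). 1110032A04Rik (now Sptssb, a small subunit of serine palmitoyltransferase, the enzyme that starts sphingolipid synthesis) was at 5.55 and 5.28 in bladder and at 0.33 and 0.15 in lung. Stomach had a higher mean (6.37) than bladder, and no other tissue did. Pkp1, a plakophilin of the desmosome plaque, was at 1.78 and 1.52 in bladder and at -2.85 and -2.49 in lung, a difference of 4.32 ± 0.38 (adjusted p = 1.02e-07). Bladder ranked 6th of 15 tissues for Pkp1 and skin was highest, with eyes next at 3.95.

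Pkhd1 encodes fibrocystin, a protein of the primary cilium that is mutated in recessive polycystic kidney disease. Its level was 4.20 and 4.64 in bladder and 0.21 and 0.26 in lung, a difference of 4.19 ± 0.70 (adjusted p = 1.63e-04). Kidney alone had a higher mean (6.27), and liver came after bladder (2.14). Dner, a transmembrane ligand related to the Delta and Notch proteins, was at 3.64 and 3.55 in bladder and at -0.22 and -0.32 in lung, and both bladder arrays lay below the means of cerebellum (5.33), brain cortex (4.88) and eyes (4.32). 6332401O19Rik (now Tmem229a) was at 4.31 and 4.29 in bladder and was not above background in lung, at least 13.5-fold apart, with kidney highest (7.39).

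Bladder had the highest mean of the 15 tissues for A830008E24Rik, 9030425E11Rik (now Clmp, an adhesion molecule of epithelial junctions) and 4833412C05Rik. Levels of A830008E24Rik were 6.07 and 5.92 in bladder against 1.18 and 0.81 in lung, those of Clmp were 2.73 and 3.14 against -0.73 and -1.06, and those of 4833412C05Rik were 4.32 and 4.48 against 0.73 and 0.48. None of these overlapped between the organs, as the choice of leading genes required. The 12 genes higher in bladder thus had differences from 3.80 to 7.47. Leaving aside 2310057J18Rik, which has no test, each was called under every alternative setting tried. Since they were chosen as the largest called differences, this is a description and adds no support.

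**Figure D3:**
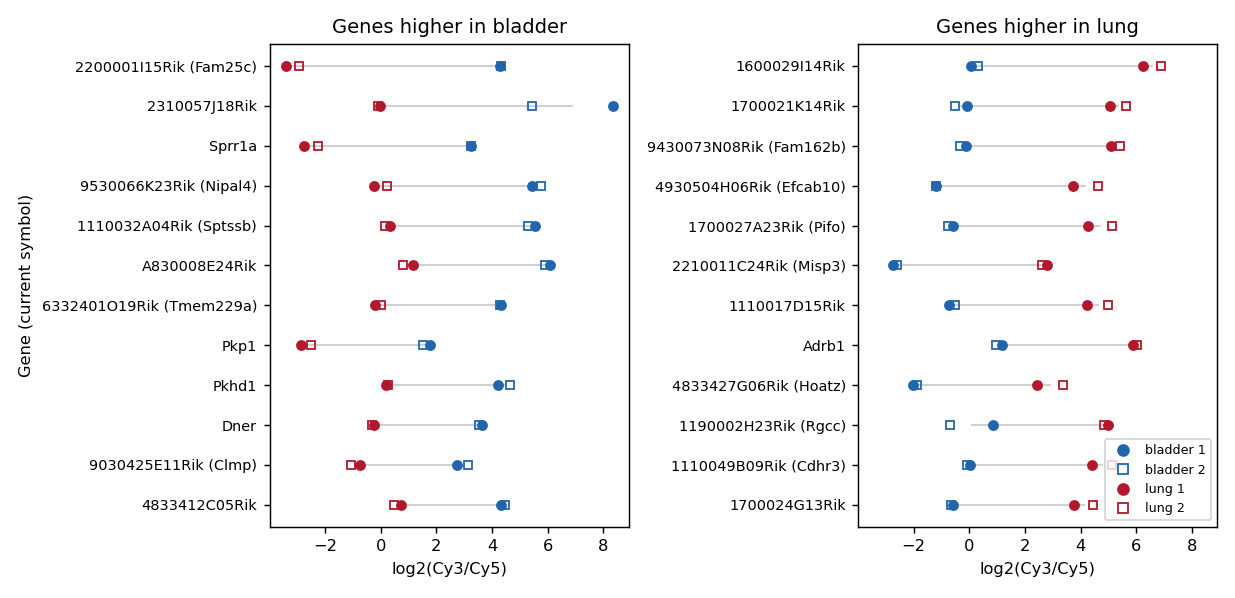
Level, log2(Cy3/Cy5), of the 12 leading named genes on either side, with filled circles for replicate 1, open squares for replicate 2, bladder in blue and lung in red. The 24 genes were chosen among those whose arrays do not overlap between the organs. The widest gap between replicates is that of 2310057J18Rik, at 8.33 and 5.44 in bladder.

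Genes highest in lung against bladder were led by 1600029I14Rik, at 6.26 and 6.89 in lung and 0.08 and 0.32 in bladder. Its difference was -6.37 ± 0.74 (adjusted p = 2.56e-06), and since bladder was not above background, lung was at least 82.9-fold higher. The next tissue, fat, had a mean of 2.20. 1700021K14Rik followed at 5.04 and 5.63 in lung against -0.07 and -0.50 in bladder, and 9430073N08Rik (now Fam162b) at 5.11 and 5.42 against -0.13 and -0.33. Lung was the highest of the 15 tissues for all 3 of these genes, and for 11 of the 12 genes of this group. 2210011C24Rik (now Misp3) was at 2.80 and 2.61 in lung and at -2.73 and -2.58 in bladder, where it had the lowest mean of the 15 tissues.

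Adrb1, a beta-adrenergic receptor best known for raising the rate and force of the heartbeat, was the receptor with the largest difference in the ratio among the genes named here. It was at 5.88 and 6.03 in lung and at 1.19 and 0.98 in bladder, a difference of -4.87 ± 0.16 (adjusted p = 1.41e-12), or 29.3-fold. The lung arrays were well above the bladder arrays, and the mean in lung (5.96) was followed by heart (5.32) and brain cortex (5.29). 1190002H23Rik (now Rgcc, a regulator of the cell cycle that responds to complement) was at 4.99 and 4.84 in lung and at 0.85 and -0.68 in bladder. The bladder arrays differed from each other by over 1 log2 unit for Rgcc but both lay far below lung, and fat (4.99) and bone (4.69) had means close to that of lung (4.92).

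Several leading lung genes belong to cilia. The list of motile cilia genes had 24 of its 41 members on tested probes (13 genes of the lists used here belong to more than 1 list and count in each), and 14 of these were called higher in lung (58.3%, beside 10.05% of all tested probes) and none higher in bladder. The median difference of the 24 was -1.42, against 0.02 over all tested probes, and lung had the highest mean of the 15 tissues for 16 of them. Genes of the beating axoneme and of ciliated cells, such as Ccdc108 (now Cfap65), Mdh1b and 1700027A23Rik (now Pifo), were called, whereas Bbs1, Bbs4, Bbs9, Ift57, Ift74, Ift88, Cluap1, Nme7, Crocc and Dnahc7b were not. Most of these 10 serve transport in cilia of every kind, including the single primary cilium of most cells. Their differences ran from -0.61 (Ift57) to 1.01 (Crocc, adjusted p = 0.11). The division was not clean, since Traf3ip1, of the intraflagellar transport complex, was called and the dynein gene Dnahc7b was not.

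Pifo, which takes part in the disassembly of cilia, was at 4.27 and 5.12 in lung and at -0.59 and -0.75 in bladder, a difference of -5.36 ± 0.55 (adjusted p = 5.69e-07). Mdh1b, a relative of malate dehydrogenase, was at 3.76 and 4.70 in lung and at -0.21 and -0.31 in bladder (-4.49 ± 0.39, adjusted p = 8.62e-08). Bladder was not above background for either gene, and lung was at least 27.8-fold higher for Pifo and at least 14.7-fold higher for Mdh1b. Cfap65, a protein of the sperm and ciliary axoneme, was at 3.80 and 4.24 in lung and at -0.06 and -0.03 in bladder. Both lung arrays lay above both bladder arrays for all 3 genes. Lung 2 was higher than lung 1 for 22 of the 24 ciliary probes, whose summed linear level (the sum of their Cy3/Cy5 ratios) was 140 on lung 1 and 224 on lung 2 against 37.1 and 38.3 on the bladder arrays. Without any one array, 13 or 14 of the ciliary genes were called.

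Further leading lung genes were read beside this list without being part of it. 4930504H06Rik (now Efcab10) was at 3.73 and 4.62 in lung against -1.20 and -1.19 in bladder, and 4833427G06Rik (now Hoatz, needed for motile cilia of the brain and for sperm) was at 2.45 and 3.38 against -2.03 and -1.88. 1110049B09Rik (now Cdhr3, a cadherin of ciliated airway cells that serves rhinovirus C as a receptor) was at 4.42 and 5.12 against 0.03 and -0.09. Lung arrays were clearly higher for each, and bladder was not above background for any of these, with bounds of at least 23.9-fold, 16.6-fold and 27.9-fold. 1700024G13Rik was at 3.77 and 4.43 against -0.58 and -0.65, and 1110017D15Rik at 4.23 and 4.99 against -0.73 and -0.51.

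Promoter sequence is shown for the ciliary genes because 14 of the 24 were called higher in lung and because a shared letter pattern can be looked for in them. RFX factors, which are known to act on ciliary genes, bind the X-box, whose core is the letters GTTGCC. These letters were searched on both strands in the RefSeq promoter windows of GRCm38.p6, which span the start sites of genes. They stood in a window of 8 of the 12 called ciliary genes that had one (66.7%) and of 6 of the 10 ciliary genes that were not called (60%), against 14.1% of all 27025 genes and 12.5% of all 32851 windows. The share was thus alike in the ciliary genes that differed between the organs and in those that did not pass the test. A match is a description of the letters and not a proven site. In the 60-base stretches that follow, each 5′ to 3′ on the strand of the gene, the capitals mark GTTGCC or its reverse complement, and Spag16 holds a copy of each.
Pifo (chr3:106001498-106001557, minus strand): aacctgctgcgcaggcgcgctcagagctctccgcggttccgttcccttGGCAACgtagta
Mdh1b (chr1:63730319-63730378, minus strand): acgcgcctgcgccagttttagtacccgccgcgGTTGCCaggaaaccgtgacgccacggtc
3100002J23Rik, now Fam183b (chr11:58801961-58802020, minus strand): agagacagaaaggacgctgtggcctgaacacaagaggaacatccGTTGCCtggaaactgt
Agbl2 (chr2:90782620-90782679, plus strand): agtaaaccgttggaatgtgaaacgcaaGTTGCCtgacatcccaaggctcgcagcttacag
Traf3ip1 (chr1:91494562-91494621, plus strand): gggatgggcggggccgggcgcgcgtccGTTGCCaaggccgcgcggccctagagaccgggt
Spag16 (chr1:69826840-69826899, plus strand): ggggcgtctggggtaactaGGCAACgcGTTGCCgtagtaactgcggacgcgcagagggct

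The genes of these stretches covered a wide range of the ciliary differences. Fam183b was at 4.004 and 4.89 in lung and at 1.06 and 1.49 in bladder, which was the next highest tissue for it, and was called with a difference of -3.17 ± 0.66 (adjusted p = 0.00126). Agbl2, an enzyme that trims glutamate residues from tubulin, was at 2.22 and 3.07 against 0.32 and 0.43. Traf3ip1, a part of the intraflagellar transport complex, was at 1.44 and 2.11 against 0.08 and 0.20, and Spag16, of the central pair of the axoneme, was at 1.11 and 1.53 against 0.10 and -0.04. Lung was the highest tissue for all of them. From the Cy3 level alone, Spag16 (-0.93) and Wdr69 (-0.78, now Daw1) fell short of the log2 difference of 1. Dnahc7a, a dynein heavy chain, was at 2.96 and 3.79 in lung and at 1.32 and 1.25 in bladder, but its call was lost with the scanner software's processed signals (-0.86), and the probe of its near-identical copy Dnahc7b differed by -0.43, so the values of this pair are uncertain, since near-identical copies can share signal.

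Smooth muscle genes went the other way. Of 33 listed contractile genes, 13 had a tested probe, and 8 of these were called higher in bladder (61.5%, beside 6.37% of all tested probes) and none higher in lung (median difference 1.49). Lmod1, a leiomodin that nucleates actin filaments in smooth muscle, was at 3.06 and 3.07 in bladder and at 0.22 and 0.64 in lung, with bladder highest of the 15 tissues. The difference was 2.64 ± 0.35 (adjusted p = 1.32e-05). Csrp1, a LIM domain protein of smooth muscle, was at 4.89 and 5.05 in bladder and at 2.48 and 2.78 in lung, and Actn1, an alpha-actinin that crosslinks actin at dense bodies, was at 1.91 and 1.99 against -0.15 and -0.11. Lung was also above the mean of the other 13 tissues for Csrp1 and Actn1, by 2.00 and 1.17, so these were raised in both organs and more so in bladder. Ppp1r12b, the targeting subunit of myosin phosphatase, had the largest difference of the list in the ratio (from Cy3 alone it was 3.28, behind Des and Lmod1), at 3.78 and 4.03 in bladder and 1.09 and 1.32 in lung (2.70 ± 0.40, adjusted p = 3.95e-05).

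Des, the intermediate filament protein of muscle, was at 2.60 and 2.55 in bladder and at 1.17 and 1.80 in lung. Cy5 at this probe was 13315 and 12552 scanner units on the bladder arrays and 733 and 833 on the lung arrays, and Cy3 was 34009 and 30652 against 1285 and 906. The difference of 1.08 in the ratio fell to 0.77 without lung 1 and to 0.82 with median centring, where it was not called, and was 4.96 from the Cy3 level alone (adjusted p = 4.18e-07). Fhl2, a LIM domain cofactor, was at 0.82 and 1.09 in bladder and at -1.22 and -0.37 in lung, and its call was lost without bladder 2 (1.61), without lung 1 (1.33) and with the slide as a random block (1.76). Speg and Synpo2 were called as well, with differences of 1.92 and 1.49. Among the members that were not called, Tns1 was at 4.99 and 5.03 in bladder and 4.50 and 4.54 in lung, and Kcne4 at 3.37 and 3.38 against 3.15 and 2.22. Bladder and lung were the highest 2 tissues for both.

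The CArG box, the motif bound by serum response factor in many muscle genes, was searched in the same promoter windows. It stood in 1 of the 8 called smooth muscle genes, Fhl2, in both of its windows, and in 1 of the 5 that were not called, Actg1, against 1.63% of all windows and 1.81% of all genes. The Fhl2 stretches are shown because no other called member held the motif, and the capitals mark it.
Fhl2, first window (chr1:43196825-43196884, minus strand): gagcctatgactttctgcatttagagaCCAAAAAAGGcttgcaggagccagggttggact
Fhl2, second window (chr1:43163962-43164021, minus strand): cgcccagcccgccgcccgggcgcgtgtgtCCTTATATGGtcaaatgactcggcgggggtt

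**Figure D4:**
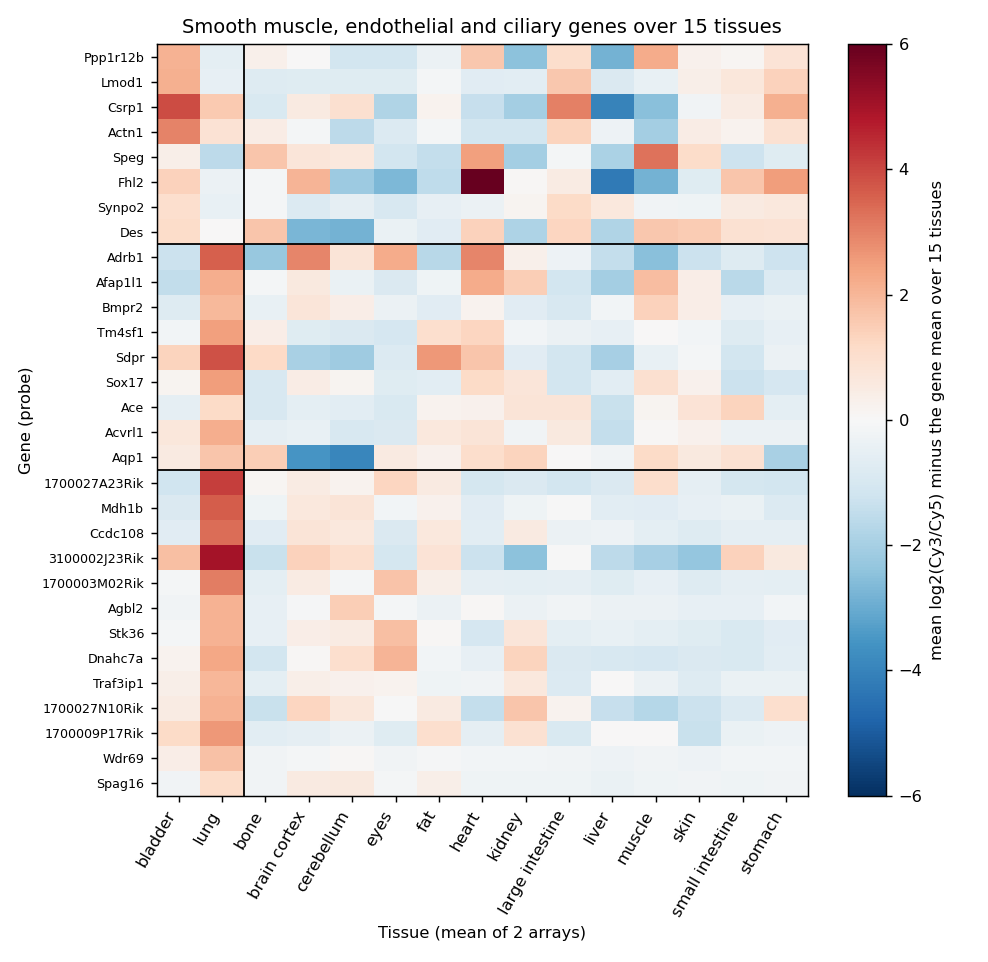
Mean log2(Cy3/Cy5) over 2 arrays of each tissue, minus the mean of that probe over the 15 tissues, for the 8 called smooth muscle genes, the 9 endothelial and 13 of the 14 ciliary genes called higher in lung (blocks from top to bottom). Bladder and lung are the first columns, and the ciliary block is raised in lung in every row. Only called genes are drawn, so the direction between bladder and lung in each block was set by that choice.

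Epithelial markers gave a mixed picture. Of the urothelium list, 7 of 32 genes had a tested probe, and 2 were called higher in bladder, 1 higher in lung and 4 were not called. The 3 calls make 42.9% of the list, beside 16.4% of all tested probes. Besides Sprr1a, the called genes were Lad1, an anchoring filament protein of basal epithelium (2.68 and 2.66 in bladder, -0.82 and -0.13 in lung, difference 3.14 ± 0.70, adjusted p = 0.00231), and Tmem37, a subunit-like protein of calcium channels, which was at -1.68 and -1.76 in bladder and at 1.70 and 1.04 in lung. Bladder was thus high for Sprr1a and Lad1 and low for Tmem37. Elf3, an epithelial transcription factor, was at 1.33 and 1.39 in bladder and at -0.13 and 0.66 in lung and was not called (adjusted p = 0.0763).

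The clade B serpins, protease inhibitors that act inside cells, and the genes of cornified epithelium held 19 tested probes, with 3 called higher in bladder, none higher in lung and a median of -0.03. That is 15.8% called higher in bladder, beside 6.37% of all tested probes. The 3 genes were Sprr1a, Pkp1 and Serpinb5 (maspin), which was at 3.25 and 3.23 in bladder and at -0.15 and -0.21 in lung, where it was not above background. Its difference was 3.42 ± 0.46 (adjusted p = 1.61e-05), at least 10.7-fold, and skin (4.28) and eyes (3.66) had higher means than bladder. Only 7 of the 19 probes were above background on both bladder arrays and 8 on both lung arrays.

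The alveolar and airway list had 7 tested genes out of 31. All 7 had a lower mean in bladder, and 3 were called higher in lung (42.9%, beside 10.05% of all tested probes). Chi3l1 (now Chil1), a chitinase-like protein of airway epithelium and macrophages, was at 3.14 and 3.53 in lung and at -0.23 and -0.08 in bladder. With bladder not above background, lung was at least 11.2-fold higher, and lung had the highest mean of the 15 tissues. Slc26a9, an anion transporter of airway and stomach, was at 2.46 and 1.55 against 0.08 and 0.07. Abca3, which loads lipid into the lamellar bodies of alveolar cells, was at 1.64 and 1.51 in lung and at 1.08 and 1.05 in bladder and was not called (adjusted p = 0.131).

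Endothelial genes were largely higher in lung. Of 14 tested members of the endothelium and pericyte list (of 36), 9 were called higher in lung (64.3%, beside 10.05% of all tested probes). Higher in bladder were 2 (14.3%, beside 6.37%), which include Sele, whose call is no test as described below. The median of -1.60 was the lowest of all lists with at least 6 tested probes. Afap1l1, an adaptor of the actin cytoskeleton, was at 5.12 and 5.06 in lung and at 1.70 and 1.14 in bladder (-3.67 ± 0.29, adjusted p = 2.64e-08). Bmpr2, the receptor for bone morphogenetic proteins whose mutation causes pulmonary arterial hypertension, was at 2.10 and 2.26 in lung and at -0.65 and -0.41 in bladder (-2.71 ± 0.16, adjusted p = 7.83e-10). Lung had the highest mean of the 15 tissues for Bmpr2 and bladder ranked 14th.

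Tm4sf1 was at 1.17 and 0.67 in lung and at -1.502 and -1.95 in bladder, Acvrl1, another receptor of that pathway in endothelium, at 4.53 and 4.73 against 3.17 and 3.07, and Ace, the angiotensin-converting enzyme of the capillary surface, at 2.72 and 3.28 against 1.35 and 1.30. Lung arrays were above bladder arrays for each. For Ace the difference was -1.68 in the ratio and -4.21 from the Cy3 level alone, with Cy5 at 2286 and 1408 scanner units in lung and at 380 and 197 in bladder. Sox17, an endothelial transcription factor, was at 5.45 and 5.90 against 3.41 and 3.20, but was not called without lung 2 (-2.15), and Aqp1, a water channel, at 3.06 and 3.21 against 1.99 and 2.05, was not called once any one of the arrays was left out (-1.04 to -1.19). Sdpr (now Cavin2), of caveolae, differed by -2.51 and was not called with the slide as a random block. The 2 genes called higher in bladder were Rgs5, a regulator of G protein signalling in pericytes, at 6.33 and 6.16 in bladder and 4.14 and 4.10 in lung, where its mean was the lowest of the 15 tissues, and Sele, the E-selectin by which activated endothelium catches leukocytes, at 1.87 and 2.13 against 0.26 and -0.02. The Sele bound was at least 3.22-fold since lung was not above background, and the probe passed the filter through bladder alone, so its call is no test.

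**Figure D5:**
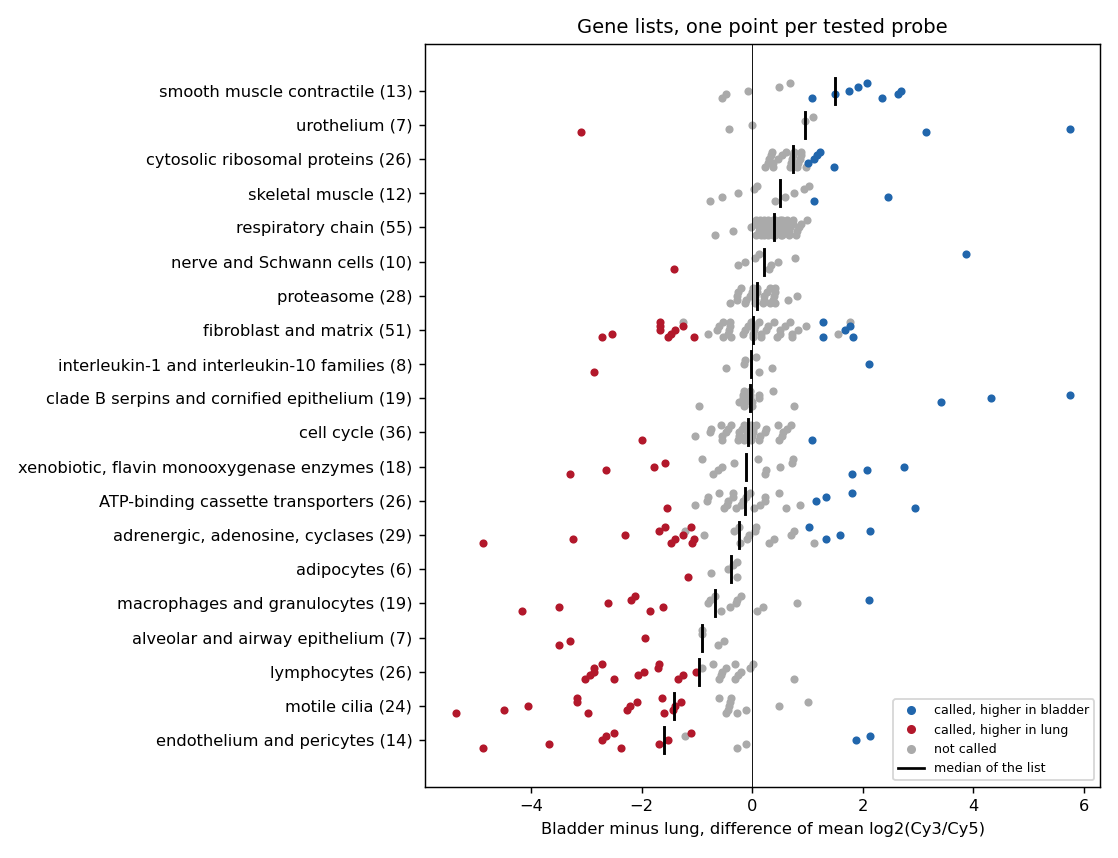
Difference of mean log2(Cy3/Cy5), bladder minus lung, for each tested probe of each gene list with at least 6 tested probes (number in parentheses), with a bar at the list's median. Smooth muscle genes reach a median of 1.49 on the bladder side and the endothelial and ciliary lists -1.60 and -1.42 on the lung side.

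Genes of adrenergic and adenosine signalling, which include receptors and other members, were called in both directions. Among the 29 tested adrenergic and adenosine receptors, adenylate cyclases and related regulators, 11 were called higher in lung (37.9%, beside 10.05% of all tested probes) and 4 higher in bladder (13.8%, beside 6.37%). Without any one of the arrays the number higher in lung was 5 to 7 (5 without lung 1, 6 without lung 2, 7 without either bladder array), and with the slide as a random block it was 4. Adrb1 kept its call without each array. Adcy8, an adenylate cyclase, was at 4.10 and 4.93 against 1.39 and 1.16, but with an SE of 1.08 its call did not survive the loss of any one array. Adora2b, a low-affinity adenosine receptor, was at 2.00 and 2.27 in bladder and at 0.57 and 0.53 in lung (1.59 ± 0.21, adjusted p = 1.36e-05), and bladder was the highest tissue for it. Adm, the vasodilator peptide adrenomedullin, was at -0.95 and -1.23 in bladder and at -2.53 and -2.30 in lung. Rgs5, described above and no receptor, had the largest difference of this list on the bladder side. Adora1 was at 3.19 and 3.29 against 2.09 and 2.32, a difference of 1.03 that dropped below 1 under several alternatives, 0.42 with processed signals.

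The leukocyte genes that passed the test were higher in lung, with 1 exception. Of 26 tested lymphocyte genes (of 35), 13 were called higher in lung and none higher in bladder (median -0.96). Of 19 tested macrophage and granulocyte genes (of 33), 7 were called higher in lung and 1 higher in bladder (median -0.67). The shares higher in lung were 50% and 36.8%, beside 10.05% of all tested probes. Ptprc, the CD45 antigen of all leukocytes, was at 1.24 and -0.12 in lung and at -2.05 and -2.29 in bladder (-2.73 ± 0.39, adjusted p = 2.85e-05). Faim3 (now Fcmr, an IgM receptor of lymphocytes) was at 3.72 and 3.37 against 0.54 and 0.50, and Cxcr4, a chemokine receptor, at 0.82 and 0.70 against -2.34 and -2.02. Marco, a scavenger receptor of alveolar macrophages, was at 3.84 and 4.17 in lung and at -0.24 and -0.10 in bladder (-4.17 ± 0.38, adjusted p = 1.41e-07), and liver (5.36) had a higher mean than lung. Mpeg1, a pore-forming protein of macrophages, was at 2.50 and 2.03 against 0.06 and 0.07.

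Lung 1 was higher than lung 2 for 20 of the 26 lymphocyte probes, and the summed linear level of the list was 144 on lung 1 and 127 on lung 2, against 31.4 and 32.5 in bladder. Without lung 1, 8 lymphocyte genes were called in place of 13, and without lung 2, 15. Among the calls that needed lung 1 were Fasl (-0.66 without it) and, among granulocyte genes, Il8rb (-0.70, now Cxcr2). Cxcr2 was at 2.44 on lung 1 and at 0.60 on lung 2, against -0.14 and -0.05 in bladder. The leukocyte gene called higher in bladder was Il1r2, the decoy receptor for interleukin-1, at 3.10 and 2.96 in bladder and 1.64 and 0.21 in lung. Of the 8 tested interleukin-1 and interleukin-10 family genes 25% were called, beside 16.4% of all tested probes. Il1r2 was the one called higher in bladder and Il18r1 the one called higher in lung, at 5.46 and 6.03 against 2.75 and 2.9999 in bladder. Lung and bladder were the highest tissues for Il18r1, in that order.

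Fibroblast and matrix genes did not move as a group. Among 51 tested members, 5 were called higher in bladder and 10 higher in lung, and the median was 0.01. In both organs 14 were higher than the mean of the other 13 tissues, as were 3.11% of all tested probes. The calls make 9.8% and 19.6% of the list, beside 6.37% and 10.05% of all tested probes, and with the slide as a random block 2 and 8 genes were called. Hmcn1, an extracellular matrix hemicentin, was at 4.88 and 4.99 in lung and at 2.10 and 2.34 in bladder (-2.72 ± 0.24, adjusted p = 7.67e-08). Col4a3 and Col4a4, chains of the basement membrane collagen of alveoli and glomeruli, were at 3.16 and 2.996 and at 0.74 and 0.56 in lung and at 0.57 and 0.50 and at -0.78 and -0.85 in bladder. On the other side, Gas1, a membrane protein that binds hedgehog ligands, was at 0.46 on both bladder arrays and at -1.29 and -1.13 in lung (1.67 ± 0.27, adjusted p = 1.03e-04), with bladder highest of the 15 tissues. Igfbp2, which binds insulin-like growth factors, was at 2.91 and 2.78 in bladder and 1.66 and 1.49 in lung, and Col3a1, the collagen of stretchable tissue, at 0.83 and 0.98 against -0.98 and -0.73. The Igfbp2 call was lost with the slide as a random block, and that of Col3a1 without any one of the arrays (1.63 to 1.88).

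Enzymes that act on foreign compounds, with the receptor that controls many of them, were split between the organs. Of 18 tested genes, 3 were called higher in bladder and 4 higher in lung. In both organs 7 were higher than the mean of the other 13 tissues (3.11% of all tested probes were). The shares were 16.7% and 22.2%, beside 6.37% and 10.05% of all tested probes. Those higher in bladder were Ahrr, the repressor of the aryl hydrocarbon receptor (2.02 and 2.24 against -0.46 and -0.78 in lung, 2.75 ± 0.34, adjusted p = 5.67e-06), Ugt1a6a, a glucuronosyltransferase (2.55 and 2.56 against 0.30 and 0.66), and Mgst3, a microsomal glutathione transferase (2.12 and 2.13 against 0.32 on both lung arrays). Those higher in lung included Aox3, Fmo1 and Gsta3. Fmo1 was at 4.61 and 5.02 in lung and at 3.27 and 2.80 in bladder, and Gsta3 at 5.13 and 5.32 against 3.71 and 3.58, though the Gsta3 call was lost when any one array was left out (-1.48 to -1.67). The bladder arrays were the lower ones for these and the higher ones for Ahrr, Ugt1a6a and Mgst3. The receptor Ahr itself was at 1.17 and 0.73 in bladder and at 1.98 and 1.34 in lung and was not called (adjusted p = 0.196).

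Among 26 tested ATP-binding cassette transporters, 4 were called higher in bladder and 1 higher in lung, 19.2% beside 16.4% of all tested probes. Abcc4, which exports cyclic nucleotides and prostaglandins, was at 1.09 and 0.74 in bladder and at -1.80 and -2.26 in lung (2.94 ± 0.44, adjusted p = 4.26e-05), and bladder had the highest mean of the 15 tissues, followed by kidney (-0.18). Abcg1, which exports cholesterol from macrophages, was at 2.51 and 2.07 in lung and at 0.71 and 0.79 in bladder. The remaining calls, Abcg4, Abcc10 and Abcd4, had differences of 1.79, 1.34 and 1.15.

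The housekeeping lists differed by small amounts. All 26 tested cytosolic ribosomal protein probes had a positive difference, with a median of 0.73, bladder was the highest of the 15 tissues for 17 of them, and 5 were called higher in bladder. Arbp (now Rplp0) was at -1.37 and -1.32 in bladder and at -2.91 and -2.74 in lung, and Rpl14 at -1.81 and -1.79 against -3.13 and -2.93. The 5 make 19.2%, beside 6.37% of all tested probes. Without lung 2, 2 of these genes were called, and with median centring 15. Of 55 tested respiratory chain genes none was called in either direction, 52 had a positive difference (median 0.40), and lung had the lowest mean of the 15 tissues for 38. Median centring called 15 of them higher in bladder. For Ndufb9, a subunit of complex I, the levels were -0.11 and -0.02 in bladder and -0.40 and -0.56 in lung. None of 28 proteasome genes was called (median 0.09). Among 36 cell cycle genes, Rfc3, of the clamp loader of DNA replication, was called higher in bladder (1.07) and Nek2, a centrosomal kinase, higher in lung (-1.99), which is 5.56% called beside 16.4% of all tested probes.

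Genes high in both organs were sought by comparing each with the mean of the other 13 tissues. Both were higher for 654 probes (3.11%) and both lower for 709 (3.37%), and these comparisons share the other 13 tissues as their baseline. With median centring in place of loess the counts were 1128 higher and 295 lower, and with the scan day as a fixed block 1017 were higher. Of the 654, 504 were not called between bladder and lung, 57 were higher in bladder and 93 higher in lung, and bladder and lung were the highest 2 of the 15 tissues for 172. Aox3, an aldehyde oxidase, was at 4.85 and 4.94 in bladder and at 7.41 and 7.68 in lung, with liver highest (9.31). The mean of both organs was 4.06 ± 0.16 above the mean of the other 13 tissues (adjusted p = 2.11e-12). Both lung arrays lay above both bladder arrays, and the call between the organs was lost with processed signals (-2.21).

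Fam183b, described above, had a mean over both organs that was 3.92 above the mean of the other 13 tissues. 1600029D21Rik (now Plet1, a membrane protein of epithelial progenitors) was at 6.05 and 5.86 in bladder and at 4.88 and 5.13 in lung and did not pass the test between the organs (0.95 ± 0.84, adjusted p = 0.508). Cbr2, a carbonyl reductase that is abundant in lung, was at 3.56 and 3.55 in bladder and at 4.07 and 4.86 in lung (-0.91 ± 0.44, adjusted p = 0.153; the difference was 0.32 with median centring), and lung was the highest tissue, followed by eyes (3.64) and bladder. The Cbr2 spots were among the brightest, with Cy5 signals of 32043 and 29031 scanner units in bladder and 75906 and 74321 in lung. Among the matrix genes raised in both were Aebp1, Ddr2, Col6a3 and Prelp. Col6a3 was at 0.70 and 0.63 in bladder and 0.73 and 0.63 in lung, levels that overlapped, and bladder and lung were the highest 2 tissues.

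Among genes below the mean of the other 13 tissues in both organs, A2bp1 (now Rbfox1, a splicing factor of neurons and muscle) had a difference of -3.23 for the mean of both. Its levels were 1.40 and -0.19 in bladder and 1.43 and 1.82 in lung, against 8.36 in brain cortex and 8.22 in skeletal muscle. 2310005C01Rik (now Nos1, neuronal nitric oxide synthase) was at -1.36 and -2.77 in bladder and -3.07 and -2.50 in lung, and Scg2, a secretogranin of neuroendocrine granules, at 1.51 and 0.06 against 0.33 and 0.32. Below that mean did not always mean lowest in rank, since Scg2 ranked 7th of the 15 tissues in bladder and 8th in lung, and A2bp1 14th and 9th. Bladder 1 was the higher bladder array for all 3. 2810451A06Rik (now Dnajc22) and 1700020C11Rik (now Mtfp1, a mitochondrial fission protein) are further examples, with differences between the organs of -0.03 and -0.27. The respiratory chain had 14 of its 55 tested genes among the 709 probes, which are 3.37% of all tested probes and number 295 with median centring. For Cyc1, cytochrome c1 of complex III, the levels were -0.62 and -0.59 in bladder and -1.003 and -0.96 in lung.

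Markers of neighbouring tissue were read for every array. Of 12 tested skeletal muscle genes, 2 were called higher in bladder (16.7%, beside 6.37% of all tested probes). Neither was called without bladder 1, without lung 1 or with the slide as a random block, and 1 was called without lung 2. Actn3, the alpha-actinin of fast fibres, was at 0.14 on bladder 1 and -1.79 on bladder 2, against -3.44 and -3.13 in lung. Myl1 was at 1.80 and 0.03, and Mstn at 1.93 and 0.53, in bladder, and the summed linear level of the list was 19.1 on bladder 1 and 11.5 on bladder 2 against 10.1 and 10.02 in lung. The summed level was thus highest on bladder 1, and the part of this in other results was not tested beyond leaving that array out, after which all 8 smooth muscle genes were still called. Of the cardiac list, 2 genes were tested. Tnnt2, cardiac troponin T, was at 3.69 and 3.63 in bladder and 3.23 and 3.81 in lung. Both organs were above the mean of the other 13 tissues for it, but neither was the highest tissue. Actn2 was at 2.41 and 0.53 in bladder and 2.90 and 3.43 in lung, a call that was lost without bladder 2 and without either lung array. Neither of 2 tested genes of the male accessory glands, Slc45a3 and Crisp4, was called. Of 10 nerve genes, Dner was called higher in bladder and Resp18 higher in lung. Of 6 adipocyte genes, Inhbb was called higher in lung (-1.16), a call lost without lung 2 (-0.86). These lists had 20% and 16.7% called in either direction, beside 16.4% of all tested probes.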

How the data were processed

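RNA of 15 tissues was measured on two-colour Agilent arrays, of which 2 bladder and 2 lung arrays are the subject here. The authors extracted spots with Feature Extraction 9.5.1.1, and the deposited files give intensity per dye in scanner units, a log10 ratio of Cy5 over Cy3, and outlier, saturation and background flags. The authors' value table gives 25030 probes in log10 units; against the spot files it followed log10 Cy3, corrected for the deviation of Cy5 (slopes 0.998 and -0.997), with column medians of 2.58 to 2.62, and it served as the probe set.

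Background was corrected by normexp (offset 50), flagged spots (475, 0.0377%) were removed, and ratios were normalised by loess. Spots of a probe were averaged. Probes well above background in Cy3 on both arrays of at least 1 tissue were kept. limma 3.58.1 (R 4.3.3) fitted 1 coefficient per tissue over 30 arrays, since 2 arrays per tissue share 1 estimate of the spread. Tests were two-sided with Benjamini-Hochberg adjustment over all 21019 tested probes, and a probe was called at an adjusted p under 0.05 and a log2 difference of at least 1. Precision is limited by the number of arrays. On simulated data 74% of changes of log2 1.5 and 98% of log2 3 were recovered. Symbols came from the study's probe lists, current names from RefSeq (GRCm38.p6). Of 5047 symbols, 3166 were current, 1534 synonyms and 347 in neither. Named genes are the 12 with the largest difference in each direction without overlap, 5 shared in each direction, and list members, not all of them printed. The members and lists were chosen with earlier results of these data known. Some listed genes count in the totals but are not reported by name here.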

Additional observations from a re-analysis of the deposited data

How the results depend on the processing

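No called difference changed sign under any of the 23 alternatives, whereas 256 values of 91 results that were not called did. Of 10360 gene values 9949 kept their call, 239 lost and 172 gained one. The 24 leading genes were called under all of them, but they were chosen as the largest called differences. For 2310057J18Rik, which passed the filter through bladder alone, this is no test. Probes raised in both organs numbered 1128 with median centring in place of loess, 984 in the authors' value table and 1017 with the scan day as a fixed block, and probes low in both numbered 295 with median centring. Testing against a difference of 1 (limma treat) called 1245 probes, 441 higher in bladder and 804 higher in lung, with 131 and 84 shared. Mean r between bladder and lung arrays was 0.688 as reported, 0.736 with median centring, 0.888 from Cy3 alone and 0.920 in the value table, the last 2 on scales that keep each probe's own brightness. Calls higher in lung made up 61.2% of all calls and 51.4% with median centring. Leaving out arrays gave 2926 to 3072 calls, 1144 to 1181 higher in bladder and 1775 to 1896 higher in lung. A fixed slide block could not be fitted for this comparison, and scaling between arrays (Aquantile) leaves ratios unchanged by construction. With the replicate number as a block 3479 probes were called; the numbers do not pair the tissues (deviations correlated at 0.138 for bladder and lung, and over 0.1 in 33 of 105 tissue pairs). Restricting to the shared scan day and taking the lowest of 3 folds as a bound were chosen after seeing the data. The signal over background limits the 113 and 349 calls with 1 organ at background to lower bounds.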

Other observations

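Differences between the replicates of an organ, on genes chosen after their values were seen, were not spread evenly over both arrays. The bladder arrays differed by at least 1 on the log2 scale at 252 probes, and bladder 1 was the higher one at 239 of these. 1190003K10Rik (now Fam240b) was at 4.22 on bladder 1 and 0.19 on bladder 2, and 4833419K08Rik (now Myoz3, a protein of the sarcomere Z-disc in fast muscle) was at 2.35 and -0.05. 2310042D19Rik (now Perm1, a regulator of muscle metabolism) was at 2.24 and 0.21. The lung arrays differed by as much at 262 probes, and lung 1 was the higher one at 165. 1810043G02Rik (now Cfap410, a ciliary protein) was at 0.07 on lung 1 and 2.40 on lung 2, and Ptgs2, the inducible cyclooxygenase, was at -1.17 on lung 1 and -2.57 on lung 2, against -2.90 and -2.21 in bladder.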
